A study of Drosophila melanogaster with 36 samples.

Results

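Drosophila S2 clonal lines that lacked Dora were compared with wild-type (WT) lines in small RNA that had survived periodate treatment. These 6 libraries, 3 dora and 3 WT, are 6 of the 36 of the series, which also holds total small RNA, Ago1 and Ago2 immunoprecipitates (IP) and poly(A) RNA of the same kind of lines. S2 is a cultured cell line of embryonic origin. The dora lines were made by Cas9 cutting within dora, the WT lines were clones that had received a scrambled guide RNA, and each replicate was a different clone, so that genotype and clonal history cannot be told apart within 1 line. No other allele is named for either group. RNA of both was oxidised with periodate and put through β-elimination, which spoils the 3′ end of unmodified RNA for ligation and spares RNA that carries a 2′-O-methyl group there. For comparison, Ago1-IP libraries of dora and WT lines, in which Ago1 was pulled down with a fragment of its partner TNRC6B, and Ago2-IP libraries of hen1/dora and hen1 lines were used. The hen1 lines lacked the methyltransferase Hen1 and carried a tagged Ago2. The tables used here count small RNA and do not measure the dora transcript, so the loss of dora was not checked in these libraries.

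In flies, most miRNAs are loaded into Ago1, and siRNAs and a part of the miRNAs and their partner strands are loaded into Ago2. Hen1 methylates the 3′ ends of small RNAs that are in Ago2, which is why resistance to periodate is read as a sign of Ago2 loading. Dora is the fly homolog of mammalian ZSWIM8, a substrate adaptor of a Cullin-RING ubiquitin ligase that is required for target-directed miRNA degradation, in which extensively paired targets lead to destruction of the Argonaute protein and release of its miRNA.

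The miRNAs that the results turn on are the study's Dora-sensitive miRNAs, a list drawn up from total small RNA libraries and not from the treated ones. Their sequences, taken from RefSeq on Release 6 (dm6) and printed 5′ to 3′ with the seed (bases 2 to 8) in capitals, show which of them share a seed. miR-9b-5p (2L:16698758-16698780, plus strand) and miR-9c-5p (2L:16697936-16697957, plus strand) lie within the transcribed span of grp. miR-279-3p (3R:29215651-29215672, plus strand) and miR-996-3p (3R:29217244-29217265, plus strand) are neighbours, and they share a seed with each other, as the miR-9 pair does.
miR-9b-5p: uCUUUGGUgauuuuagcuguaug
miR-9c-5p: uCUUUGGUauucuagcuguaga
miR-279-3p: uGACUAGAuccacacucauuaa
miR-996-3p: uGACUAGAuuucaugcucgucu

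The other Dora-sensitive miRNAs shown have seeds of their own. They are miR-12-5p (X:15509479-15509501, plus strand, in Gmap), miR-190-5p (3L:8571822-8571845, plus strand, in rhea), miR-277-3p (3R:10100080-10100102, plus strand), miR-999-3p (3R:21798249-21798270, minus strand, in CASK) and miR-1012-3p (3R:26861349-26861371, minus strand, in Lerp). miR-7-5p, the remaining member, is named only.
miR-12-5p: uGAGUAUUacaucagguacuggu
miR-190-5p: aGAUAUGUuugauauucuugguug
miR-277-3p: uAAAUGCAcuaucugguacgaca
miR-999-3p: uGUUAACUguaagacugugucu
miR-1012-3p: uUAGUCAAagauuuuccccauag

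A second set is shown because its members stood out in the treated libraries without belonging to that list. miR-252-5p (3R:13464275-13464296, minus strand) and miR-9388-5p (3L:22945131-22945153, plus strand) were lower in every dora library than in any WT library, as was miR-33-5p (3L:19797986-19798006, plus strand), which lies in SREBP, and miR-980-3p (X:280188-280209, minus strand, opposite CG3777) was higher in every one.
miR-252-5p: cUAAGUACuagugccgcaggag
miR-9388-5p: gUAUGUAUguauguacauacaug
miR-33-5p: gUGCAUUGuagucgcauuguc
miR-980-3p: uAGCUGCCuugugaagggcuua

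The treated libraries were shallow and uneven. They held 265759, 671057 and 470319 miRNA reads in dora 1, 2 and 3, against 371626, 393832 and 478378 in WT 1, 2 and 3, and each detected 119 to 145 of the 310 miRNAs listed. Dora 1 stood apart: size-marker sequences made up 57.0% of its counted reads, against 0.172% to 0.335% in the other libraries, and these rows were left out of every total. In dora 1, one locus, cisNAT-1355, likewise took 15.0% of the locus signal, against 0.149% to 0.271% in the other treated libraries, and it was left out as well. In the Ago1-IP libraries of both genotypes it took 27.0% to 40.2%, and it was left out there too. The 4 miRNAs taken as S2 markers (bantam-3p, miR-14-3p, miR-8-3p and miR-184-3p) were all present, at 11.5% of miRNA reads on average in dora libraries and 10.8% in WT libraries. Of markers of other cells, the nervous-system miR-124-3p and miR-100-5p of the let-7 complex had no read in any of the 6 libraries, muscle miR-1-3p had 15.1, 1.49 and 0 RPM (reads of a miRNA scaled to the miRNA total of its library) in dora libraries and 2.69, 0 and 0 RPM in WT libraries, and let-7-5p did not pass 8.50 RPM.

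The composition of the periodate-resistant miRNA pool was similar in both genotypes. All levels are shares of a library, so that a change of the whole pool cannot be told apart from none. The 10 most abundant miRNAs held 69.5% to 70.7% of miRNA reads in dora libraries and 68.9% to 75.0% in WT libraries. They were miR-33-5p, bantam-5p, miR-33-3p, miR-9388-3p, miR-282-3p, miR-2a-2-5p, miR-184-5p, miR-184-3p, miR-995-3p and miR-277-3p, so that bantam, which promotes growth and restrains cell death in flies, was represented among them by its partner strand. bantam-5p stood at 148341, 122535 and 119912 RPM in dora libraries, against 110151, 98032 and 107505 RPM in WT libraries. All dora libraries were above all WT libraries, but the log2 fold change of 0.18 did not pass the test. Strands from the 5′ arm made up 47.3%, 49.1% and 52.3% of miRNA reads in dora libraries, against 46.0%, 49.4% and 48.8% in WT libraries. In Ago1-IP libraries the 5′ arm took 14.5% to 14.8% in dora lines and 7.17% to 8.09% in WT lines, and in Ago2-IP libraries 56.1% to 57.3% in hen1/dora lines and 53.6% to 56.9% in hen1 lines.

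None of the 10 Dora-sensitive miRNAs passed the test for a change in periodate-resistant RNA upon loss of Dora. miR-190-5p was at 7469, 7600 and 8413 RPM in dora libraries, against 6498, 7338 and 6821 RPM in WT libraries. miR-9c-5p was at 9215, 9388 and 9260 RPM in dora libraries, against 7287, 8054 and 8017 RPM in WT libraries. In both the lowest dora library exceeded the highest WT library, but by little: the log2 fold changes were 0.06 for miR-190-5p (SE 0.20, adjusted p = 0.932, edgeR quasi-likelihood test) and 0.13 for miR-9c-5p (SE 0.19, adjusted p = 0.765). These fold changes follow TMM normalization, under which the median of all miRNAs tested was −0.06, whereas it was 0.05 with all miRNA reads as the library size.

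miR-12-5p was the third member whose groups did not overlap, at 3037, 3044 and 5133 RPM in dora libraries, against 2656, 1097 and 2454 RPM in WT libraries. Its log2 fold change was 0.76 (SE 0.34, adjusted p = 0.384), and WT 2 was the low library. miR-7-5p, which in flies acts in photoreceptor differentiation, had 177, 134 and 183 RPM in dora libraries and 70.0, 45.7 and 140 RPM in WT libraries, a log2 fold change of 0.82 (SE 0.36, adjusted p = 0.374). WT 3 overlapped the dora libraries, and these levels rested on 18 to 90 reads per library. Across the 99 miRNAs tested, 15.2% had all dora libraries above all WT libraries and 11.1% had them all below, beside which the 3 of 10 here stand.

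The remaining members lay close to 0 or were too low to place. miR-277-3p, the most abundant of them, which in flies acts on branched-chain amino acid breakdown, had 44187, 33853 and 30486 RPM in dora libraries, against 34414, 32963 and 42801 RPM in WT libraries. miR-996-3p had 3974, 6339 and 7329 RPM in dora libraries, against 5336, 5711 and 5981 RPM in WT libraries, and its seed-sharing neighbour miR-279-3p had 2495, 2685 and 2783 RPM in dora libraries, against 2147, 2130 and 2600 RPM in WT libraries. In all these the groups overlapped, with log2 fold changes of −0.15 (SE 0.18) for miR-277-3p, 0.09 (SE 0.21) for miR-279-3p and −0.06 (SE 0.27) for miR-996-3p, which was 0.05 with all miRNA reads as the library size. miR-9b-5p, at 230, 134 and 185 RPM in dora libraries and 140, 81.3 and 167 RPM in WT libraries, miR-999-3p, at 549, 386 and 472 RPM in dora libraries and 431, 383 and 537 RPM in WT libraries, and miR-1012-3p, at 64.0, 148 and 176 RPM in dora libraries and 94.2, 30.5 and 140 RPM in WT libraries, overlapped as well. Their log2 fold changes were 0.36 (SE 0.30) for miR-9b-5p, −0.07 (SE 0.22, or 0.05 with all miRNA reads as the library size) for miR-999-3p and 0.50 (SE 0.50) for miR-1012-3p.

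**Figure D1:**
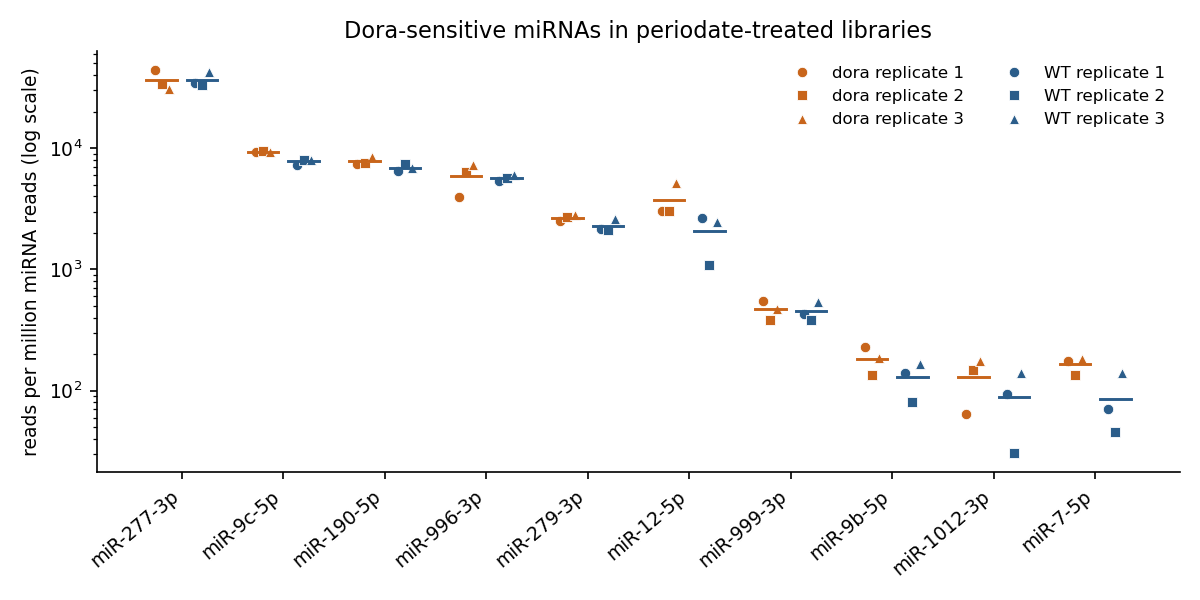
RPM (log axis) of the 10 Dora-sensitive miRNAs in each periodate-treated library, with dora libraries left of WT libraries, 1 point per library and a bar at the mean of the 3. The groups are apart only for miR-9c-5p, miR-12-5p and miR-190-5p, and the highest point of the plot is miR-277-3p in dora 1, at 44187 RPM.

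As a list, the Dora-sensitive miRNAs made up 6.65 ± 0.425% of miRNA reads in dora libraries and 6.22 ± 0.650% in WT libraries (SD, n = 3 each). Their median log2 fold change was 0.11, with 7 of 10 above 0, beside −0.06 and 40 of 99 for all miRNAs tested, and 0 of 10 were called in either direction. The 95% intervals of the low members were wide on the log2 scale, from 0.02 to 1.62 for miR-7-5p, from −0.30 to 1.02 for miR-9b-5p and from −0.61 to 1.61 for miR-1012-3p, and that of miR-12-5p ran from −0.00 to 1.52.

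The partner strands of these miRNAs, which come from the same hairpins, did not pass the test either. They made up 0.329 ± 0.0382% of miRNA reads in dora libraries and 0.279 ± 0.0319% in WT libraries (SD, n = 3 each), with a median log2 fold change of 0.03 and 5 of 10 above 0. miR-12-3p was the one with the smallest p, at 128, 98.4 and 140 RPM in dora libraries and 56.5, 30.5 and 73.2 RPM in WT libraries. Its groups did not overlap, and its log2 fold change was 1.06 (SE 0.32, adjusted p = 0.136, edgeR). miR-7-3p, at 320, 303 and 323 RPM in dora libraries and 258, 282 and 280 RPM in WT libraries, was the other member whose groups were apart, at a log2 fold change of 0.08.

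The ratio of a Dora-sensitive miRNA to its partner strand compares the strands within each hairpin. For miR-190 it was 13.1, 17.5 and 17.8 in treated dora libraries and 16.4, 15.8 and 13.6 in treated WT libraries, while in Ago1-IP it was 33.5, 32.6 and 29.1 in dora libraries and 0.844, 0.963 and 0.956 in WT libraries. For miR-996 it was 1.63, 3.27 and 3.43 in treated dora libraries and 3.12, 3.47 and 2.90 in treated WT libraries, while in Ago1-IP it was 583, 529 and 570 in dora libraries and 67.7, 50.4 and 57.8 in WT libraries. So for both the treated groups overlapped and the Ago1-IP groups were far apart.

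miR-9c showed a smaller shift in treated libraries, with ratios of 612, 525 and 544 in dora libraries and 451, 288 and 384 in WT libraries, and a larger one in Ago1-IP, with 5.22, 5.32 and 4.42 in dora libraries and 0.383, 0.413 and 0.349 in WT libraries. For miR-9b the ratio was 20.3, 22.5 and 43.5 in treated dora libraries and 6.50, 10.7 and 16.0 in treated WT libraries, while in Ago1-IP it was 36.6, 34.1 and 29.6 in dora libraries and 2.93, 4.06 and 3.19 in WT libraries. The treated miR-9b ratios rest on few reads of miR-9b-3p, which was at 4.25 to 11.3 RPM in dora libraries and 7.62 to 21.5 RPM in WT libraries. The treated groups were thus apart for both miR-9 members, and they overlapped for miR-277, miR-279, miR-999 and miR-1012. For miR-7, 0.553, 0.443 and 0.566 in treated dora libraries overlapped 0.271, 0.162 and 0.500 in treated WT libraries. For miR-12, both strands were higher in dora libraries, and the ratio was 23.7, 31.0 and 36.6 in treated dora libraries and 47.0, 36.0 and 33.5 in treated WT libraries. These ratios were not tested.

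Over all miRNAs, 2 of the 99 tested fell upon loss of Dora (2.02%) and 0 rose (0%), with 12 at an unadjusted p under 0.05. By DESeq2, 1 rose and 3 fell. miR-278-3p, which in flies takes part in energy homeostasis, was at 33.9, 23.8 and 23.4 RPM in dora libraries, against 210, 71.1 and 105 RPM in WT libraries, a log2 fold change of −2.38 (SE 0.43, adjusted p = 0.0233, edgeR). miR-252-5p was at 124, 310 and 266 RPM in dora libraries, against 1200.1, 462 and 1093 RPM in WT libraries, a log2 fold change of −2.02 (SE 0.42, adjusted p = 0.0377, edgeR). In both all dora libraries were below all WT libraries, and WT 1 was the highest library. Neither is Dora-sensitive in the study's list. The reads behind them were few, 9 to 16 in dora libraries and 28 to 78 in WT libraries for miR-278-3p, and 33 to 208 in dora libraries and 182 to 523 in WT libraries for miR-252-5p.

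Both calls depended on single libraries and settings. Over 14 alternatives the adjusted p (edgeR or DESeq2) of miR-278-3p ran from 0.000652 to 0.146 and stayed under 0.05 in 8, and that of miR-252-5p ran from 0.000655 to 0.152 and stayed under 0.05 in 7. Leaving out dora 2, dora 3 or WT 3 raised it past 0.05 for miR-278-3p, to 0.105, 0.140 and 0.0629, and leaving out dora 2, dora 3, WT 1 or WT 3 did so for miR-252-5p, to 0.0719, 0.140, 0.141 and 0.0991. Without dora 1, the library with the size markers, 2 miRNAs were lower and 0 higher. In the Ago2-IP libraries, which carry no methyl mark, miR-252-5p had 297, 515 and 236 RPM in hen1/dora lines and 443, 1455 and 807 RPM in hen1 lines, with a log2 fold change of −1.47 (adjusted p = 0.103, edgeR).

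Next in order came miR-980-3p, with 199, 99.8 and 549 RPM in dora libraries and 48.4, 33.0 and 71.1 RPM in WT libraries, and miR-9388-5p, with 248, 277 and 296 RPM in dora libraries and 797, 419 and 500.1 RPM in WT libraries. The groups of each were apart, dora 3 being the high library for miR-980-3p, and the log2 fold changes were 2.35 (SE 0.59) and −1.17, with an adjusted p of 0.0663 (edgeR) for both. Under the alternatives miR-980-3p passed in 7 of 13 (adjusted p 0.00276 to 0.168, edgeR or DESeq2) and miR-9388-5p in 4 of 14 (0.00938 to 0.221). Low miRNAs followed: miR-281-3p, at 22.6, 11.9 and 12.8 RPM in dora libraries and 26.9, 43.2 and 33.4 RPM in WT libraries, differed by −1.34 on the log2 scale (adjusted p = 0.136). The most abundant miRNA of the pool, miR-33-5p, from the gene of the lipid regulator SREBP, was at 78974, 106313 and 126087 RPM in dora libraries and 132703, 138564 and 153841 RPM in WT libraries. All dora libraries were below all WT libraries, at a log2 fold change of −0.56 that did not pass the test (adjusted p = 0.273).

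**Figure D2:**
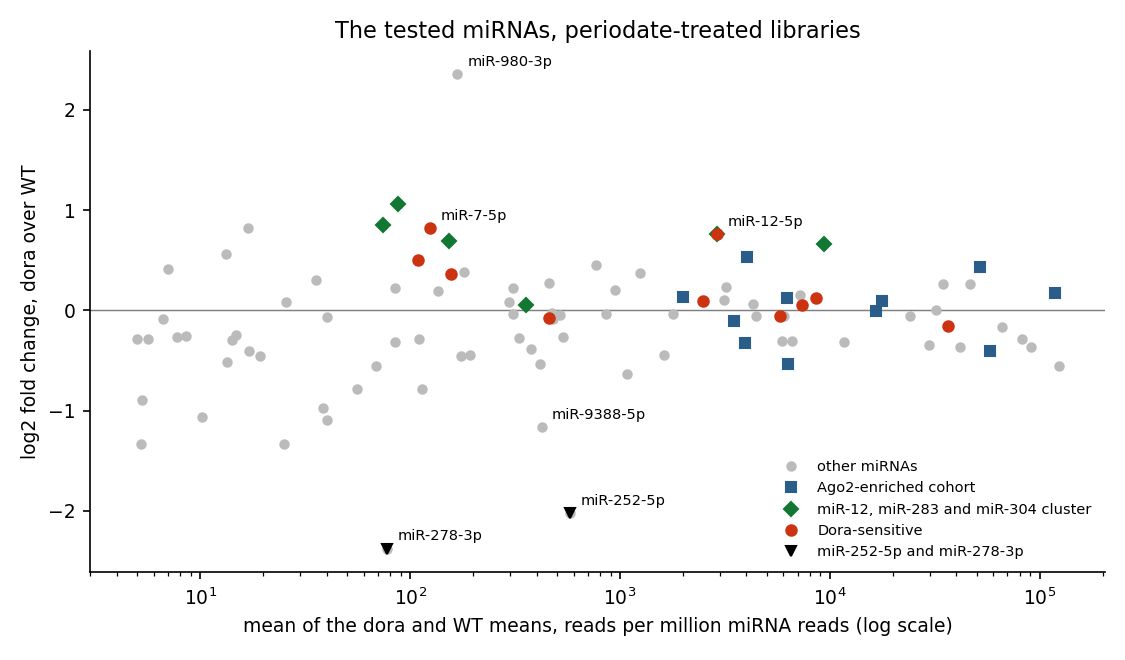
Mean RPM over the 6 treated libraries (log axis) against the log2 fold change (dora over WT) of the 99 miRNAs tested, with red circles for the Dora-sensitive miRNAs, blue squares for the Ago2-enriched cohort, green diamonds for the cluster of miR-12, miR-283 and miR-304, and black triangles for the miRNAs below an adjusted p of 0.05. The Dora-sensitive miRNAs lie between −0.15 and 0.82, and the 2 called miRNAs, miR-278-3p and miR-252-5p, lie at −2.38 and −2.02.

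Other groups of miRNAs showed small shifts. The Ago2-enriched cohort, partner strands and other Ago2-loaded strands that the study used to scale such libraries and chose for their abundance, their enrichment in Ago2 and their lack of a response to Dora, held 30.7%, 30.8% and 30.8% of miRNA reads in dora libraries, against 25.7%, 28.8% and 26.0% in WT libraries. All dora libraries were above all WT libraries, although the median log2 fold change of the 11 members was 0.10, with 3 members apart upwards, 1 apart downwards and none called, beside 15.2% and 11.1% of all miRNAs tested. As the study chose the cohort partly for not responding to Dora, these values are not independent evidence. The cluster of miR-12, miR-283 and miR-304, whose members share a transcript, had 6 of 6 strands above 0, a median log2 fold change of 0.73 and 3 of 6 apart upwards (beside 40 of 99 above 0 and 15.2% apart upwards over all miRNAs tested), and held 1.63 ± 0.423% of reads in dora libraries and 0.956 ± 0.406% in WT libraries (SD, n = 3 each). miR-283-5p was at 9723, 10418 and 15083 RPM in dora libraries, against 9372, 3651 and 7810 RPM in WT libraries, with WT 2 again the low library, and none of the cluster was called.

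The K-box family of miR-2, miR-13, miR-6, miR-11 and miR-308, which shares a seed, held 5.36 ± 0.736% of reads in dora libraries and 4.27 ± 0.592% in WT libraries, at a median log2 fold change of −0.06, the same as over all miRNAs tested. Most of it was miR-11-3p, with 44868, 36051 and 36826 RPM in dora libraries and 30199.7, 32839 and 25722 RPM in WT libraries, where the groups were apart. The mirtrons, which are excised by splicing and not by Drosha, had 6 members tested, a median of −0.43 and 1 of 6 above 0. Medians were −0.22 for the cluster of miR-277, miR-34 and miR-317 and −0.31 for the miR-9c cluster. None of the members of these lists was called in either direction.

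Loss of Dora changed Dora-sensitive miRNAs less in periodate-resistant RNA than in Ago1-bound RNA. This was tested with an interaction term over the treated and Ago1-IP libraries for the 81 miRNAs that could be tested in both, each difference being the treated log2 fold change minus that in Ago1-IP. Of these, 13 were lower (16%) and 2 were higher (2.47%) at an adjusted p under 0.05 (edgeR), and the 13 held 9 of the 9 Dora-sensitive miRNAs tested. The median log2 fold change of these 9 was 0.17 in treated libraries and 3.42 in Ago1-IP libraries (2.15 to 5.72), and their median difference was −3.39, beside −0.09 for all 81 and 0.02 for the other 72. The list was drawn up from total small RNA of the same kind of lines, so its direction in Ago1-IP is not independent evidence.

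The differences were largest for miR-12-5p and miR-190-5p. miR-190-5p was at 7135, 7323 and 7144 RPM in Ago1-IP dora libraries and 241, 282 and 278 RPM in Ago1-IP WT libraries, far apart where the treated groups lay close together. Its difference was −4.54 (95% interval −4.98 to −4.10, adjusted p = 1.73e-09). miR-12-5p averaged 9563 ± 695 RPM in Ago1-IP dora libraries and 172 ± 58.0 RPM in Ago1-IP WT libraries (SD, n = 3 each), with a difference of −4.91 (−6.06 to −3.77, adjusted p = 7.1e-06).

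For the other members tested, the differences were −3.85 for miR-9c-5p, −3.61 for miR-7-5p, −2.96 for miR-999-3p, −3.39 for miR-996-3p, −2.63 for miR-277-3p, −1.98 for miR-279-3p and −2.38 for miR-9b-5p. miR-279-3p and miR-996-3p, which share a seed, thus moved by unlike amounts, as did miR-9b-5p and miR-9c-5p. miR-1012-3p could not be tested in both pools. Each of the 9 stayed past the threshold in all 17 alternatives, which included leaving out each of the 12 libraries in turn.

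Among miRNAs outside the list, miR-9388-5p differed most, at −3.29. It was at 179, 181 and 127 RPM in Ago1-IP dora libraries and 30.8, 39.2 and 32.0 RPM in Ago1-IP WT libraries, so that it was higher in every dora library of Ago1-IP, whereas its treated dora libraries were all below the WT libraries. miR-275-5p was at −1.34, and miR-33-5p (−1.15) and miR-305-5p (−0.71), both named after their values were seen, completed the 13. The 2 with a positive difference were miR-2a-1-5p at 0.87 (adjusted p = 0.0113) and miR-965-5p at 0.90 (adjusted p = 0.0153). The count of positive differences depended on scaling: with one TMM reference over both kinds of library, 34 were higher and 10 lower, and the median difference of all miRNAs was 0.77. Leaving out WT 2 of the treated libraries gave 5 higher, WT 1 gave 4, Ago1-IP WT 3 gave 0, and dora 1 of the treated libraries gave 1 higher and 19 lower.

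**Figure D3:**
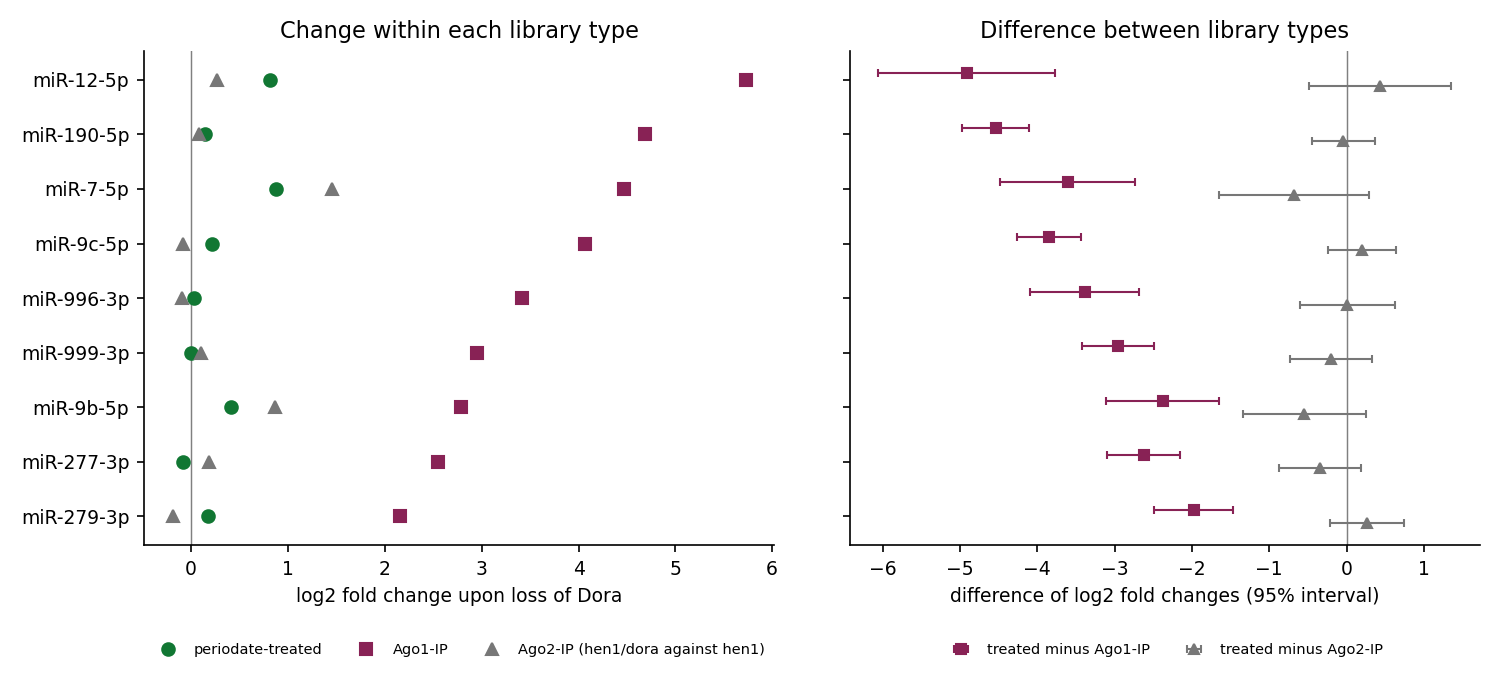
Left, log2 fold changes (dora over WT) of the Dora-sensitive miRNAs in treated, Ago1-IP and Ago2-IP libraries, the last as hen1/dora over hen1. Right, differences of the treated log2 fold change from that in Ago1-IP and in Ago2-IP with 95% intervals, where the Ago1-IP differences run from −4.91 to −1.98 and the Ago2-IP differences from −0.68 to 0.43.

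Against unmethylated Ago2-bound RNA no such difference was seen. Of 91 miRNAs tested with an interaction term over treated and Ago2-IP libraries (hen1/dora and hen1 lines), 0 differed in either direction by edgeR, the smallest adjusted p being 0.509, with 5 at an unadjusted p under 0.05. The Dora-sensitive miRNAs had a median difference of −0.04, between −0.68 and 0.43. The intervals show what could have been missed: −0.45 to 0.36 for miR-190-5p and −0.24 to 0.64 for miR-9c-5p, but −1.65 to 0.29 for miR-7-5p and −0.49 to 1.35 for miR-12-5p. In the Ago2-IP libraries by themselves miR-7-5p was the one miRNA called, at 705, 903 and 778 RPM in hen1/dora lines and 232, 348 and 227 RPM in hen1 lines (log2 fold change 1.45, adjusted p = 0.00825, edgeR), so that its treated and Ago2-IP point estimates had the same sign and only one passed its test. miR-9b-5p had 711, 831 and 650 RPM in hen1/dora lines and 316, 434 and 375 RPM in hen1 lines. It did not pass (log2 fold change 0.87, adjusted p = 0.0724, edgeR). The study, with DESeq, reported a slight rise of both miR-7-5p and miR-9b-5p in these libraries. Both interaction tests take the libraries as independent, although treated and Ago1-IP lines of the same number may be the same clones. For treated and Ago1-IP libraries such a pairing was not modelled, so the p-values against Ago1-IP may treat a repeated clone as independent.

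The ratio of treated to total RPM was also taken for each miRNA. Over 96 miRNAs it had a median of 0.948 in dora lines and 1.14 in WT lines, and for the Dora-sensitive miRNAs 0.473 in dora lines and 2.54 in WT lines. That list was chosen for a rise in total small RNA upon loss of Dora, and total RPM is the denominator here. Its lower ratio in dora lines thus follows from the choice and does not show a fall in periodate resistance. miR-9c-5p was at 1.88 in dora lines and 5.34 in WT lines, and miR-9b-5p, with the same seed and from the same cluster, at 0.0407 in dora lines and 0.141 in WT lines. These rank 20th and 77th of the 96 in WT lines, where miR-308-5p ranked first (30.1 in dora lines and 21.7 in WT lines). miR-252-5p stood at 7.23 in dora lines and 6.43 in WT lines, and miR-278-3p at 0.803 in dora lines and 0.629 in WT lines. On average both were thus lower in total dora libraries too, and not only in treated ones. The ratios are of RPM means and were not tested, and 1 of the 3 total WT columns carries a number that matches no sample and was taken as WT by its name alone.

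Endogenous siRNAs of flies are cut by Dicer-2 from long double-stranded RNA, which arises from inverted-repeat hairpin transcripts, from convergent gene pairs (cis-NATs) and from transposable elements, and they are loaded into Ago2 and methylated. The signal per locus was deposited as values that are whole multiples of 1 step per library, and steps are given here as the closest measure of depth. The libraries held 69617, 137784 and 115808 steps in dora 1, 2 and 3, against 74284, 85955 and 115719 in WT 1, 2 and 3, and 2323 to 3720 of 13063 loci were above 0. The locus signal amounted to 0.262, 0.205 and 0.246 steps per miRNA read in dora libraries and 0.200, 0.218 and 0.242 in WT libraries. The groups overlapped, with means of 0.238 ± 0.0292 and 0.220 ± 0.0211 (SD, n = 3 each) and p = 0.4 in a two-sided exact permutation test, in which 3 against 3 cannot go below 0.1.

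The shares of the locus classes overlapped between the genotypes. Transposable-element insertions held 19.1%, 13.7% and 10.3% of the locus signal in dora libraries, against 11.3%, 10.3% and 10.0% in WT libraries (means 14.4 ± 4.44% and 10.5 ± 0.657%, SD, n = 3 each). The exact permutation test gave p = 0.3 (adjusted p = 0.833 over 5 classes), and dora 1 was the high library and dora 3 was within the range of WT. cis-NATs held 41.4%, 37.4% and 28.9% in dora libraries, against 39.7%, 38.5% and 41.6% in WT libraries (exact permutation p = 0.4), and merged annotations held 3.33%, 5.77% and 5.54% in dora libraries, against 6.08%, 4.63% and 5.06% in WT libraries (exact permutation p = 0.8). Dora libraries were more spread than WT libraries in each of these classes. One cis-NAT row, cisNAT+1717 (3L:7510985-7513354), had 1657 steps in dora 1, which is 2.38% of its locus signal, against 31 and 33 in dora 2 and 3 and 26, 18 and 36 in WT libraries. It is counted in the cis-NAT share, and it did not pass the filter on variation for the test.

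**Figure D4:**
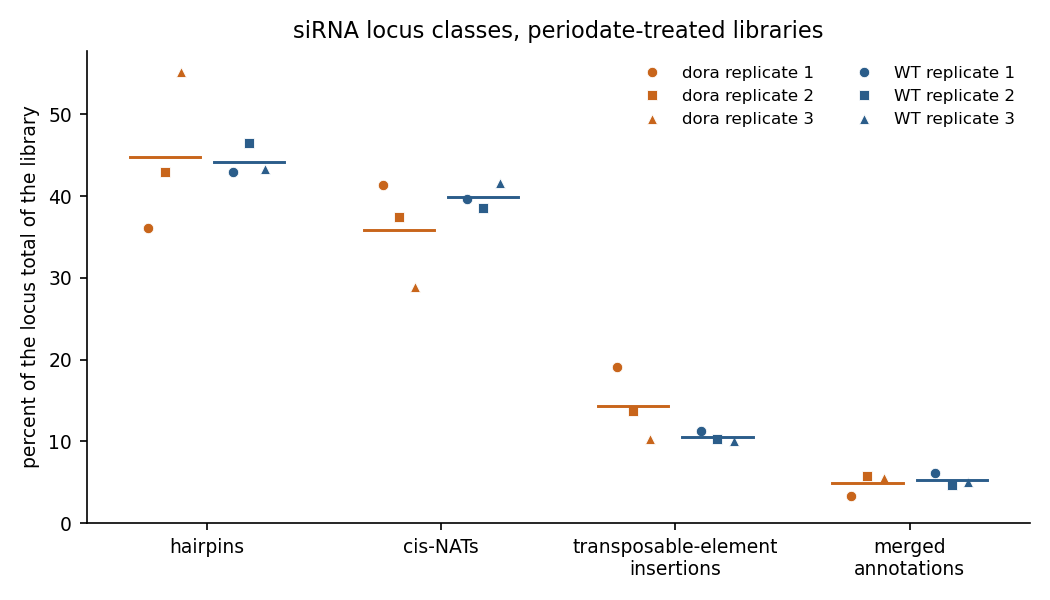
Percent of the locus signal (cisNAT-1355 left out) in hairpin loci, cis-NATs, transposable-element insertions and merged annotations, 1 point per treated library, dora left of WT, with a bar at the mean. Dora points spread more widely than WT points in every class shown, from 36.1% to 55.2% for hairpins in dora libraries, against 42.9% to 46.5% in WT libraries.

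Among 1323 loci tested, 0 passed the threshold in either direction (limma on log2 of the value plus 1, smallest adjusted p = 0.471), with 110 at an unadjusted p under 0.05, 45 of them higher and 65 lower. The study, which tested loci with CuffDiff, called 1 locus higher upon loss of Dora in these samples. All dora libraries were above all WT libraries at 59 loci (4.46%) and below at 92 (6.95%), and the median log2 fold change was −0.15, with 544 loci above 0. By class the medians were −0.19 for 935 cis-NAT rows, 0.07 for 243 transposable-element rows and −0.16 for 142 merged rows. The groups were apart upwards and downwards at 29 and 69 cis-NAT rows, 22 and 16 transposable-element rows, and 8 and 7 merged rows. A single library decided the count: without dora 3, 25 loci were called higher and 14 lower, without dora 2, 0 and 3, and without dora 1, 1 and 0.

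The hairpin signal, as deposited, came almost wholly from the merged row overlap-3 (2L:9787285-9790745, dm6, 3461 nt). This row holds hpRNA:CR18854 and, on the opposite strand, IP3K1, a kinase of inositol trisphosphate. The reverse complement of the study's blot probe for the siRNA CR18854_1 matches the minus strand of this row at 2L:9790119-9790136. Its probe for CG4068_1 is the reverse complement of a siRNA that matches the minus strand of the X within the row CG4068 (X:4921677-4928133, 6457 nt), in repeated copies. Both reverse complements of the probes are shown as DNA because they mark the product that each hairpin locus is known by.
CR18854_1 probe match: gggaaactatggatcaaa
CG4068_1 siRNA: ttgactccaacaagttcgctcc

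overlap-3 had 25140, 59189 and 63856 steps in dora libraries and 31860, 39908 and 50091 in WT libraries, which is 36.1%, 43.0% and 55.1% of the locus signal in dora libraries and 42.9%, 46.4% and 43.3% in WT libraries. The groups overlapped, with dora 1 lowest and dora 3 highest. The log2 fold change was 0.10 with a wide interval (SE 0.93, 95% interval −1.86 to 2.05, adjusted p = 0.971, limma), and it was −0.0037 with the total over loci as the library size. Part of this SE is taken by limma from a trend over all loci tested, so the interval is not the spread of these 6 libraries alone. CG4068 had 15, 47 and 55 steps in dora libraries and 28, 23 and 34 in WT libraries, a log2 fold change of 0.18 (SE 0.45, adjusted p = 0.931), again with dora 1 lowest. The study lists siRNAs of CG4068 among the most abundant siRNA sequences of treated WT libraries. The low level of this row may thus not be that of the hairpin, and how fully it holds reads of repeated copies was not tested. Of the other loci that the study lists singly, Downstream_koi had 33, 92 and 118 steps in dora libraries and 43, 58 and 54 in WT libraries, and CR46340 and Downstream_CG4770 were at 0 in all 6 libraries.

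In Ago1-IP libraries both hairpin rows were higher in dora lines. overlap-3 had 6995, 7407 and 10100.0 steps in Ago1-IP dora libraries and 3138, 2459 and 3915 in Ago1-IP WT libraries (log2 fold change 1.03, adjusted p = 2.08e-07, limma). CG4068 had 53, 74 and 125 steps in Ago1-IP dora libraries and 21, 18 and 44 in Ago1-IP WT libraries (log2 fold change 1.29, adjusted p = 0.0102). The difference between treated and Ago1-IP changes was −0.94 for overlap-3 (95% interval −1.65 to −0.23, adjusted p = 0.442, limma) and −1.11 for CG4068 (adjusted p = 0.689). A difference was thus not shown for either. That of overlap-3 passed in 2 of 17 alternatives, with the total over loci as the library size (adjusted p = 0.0293) and with a replicate block (adjusted p = 0.0144). The block joins dora and WT lines of the same number, which are different clones, so its p-value is not counted as support. Over the 175 loci tested in both kinds of library, 0 differences passed in either direction by limma, with 15 at an unadjusted p under 0.05, and the median log2 fold change was −0.14 in treated and 0.24 in Ago1-IP libraries.

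Of those 175 loci, 5 were called higher in Ago1-IP dora libraries (2.86%), the hairpins among them, and the other 3 are shown with their treated values. overlap-194 (2R:6256172-6322173, 66002 nt) had 71, 1154 and 791 steps in dora libraries and 70, 40 and 114 in WT libraries (log2 fold change 2.46, SE 0.63, adjusted p = 0.471, limma), so that dora 1 was at the level of WT and dora 2 and dora 3 were far above it. Without dora 1 its log2 fold change was 3.56 (adjusted p = 5.22e-08, limma). That fit leaves out the dora library at the level of WT. The row could be tested in 4 fits with 1 library left out and passed in 1 of them, with an adjusted p of up to 0.683 (limma). With at least 10 steps required in every library, which left 426 loci of which 4 were called higher (0.939%), it passed at the same fold of 2.46 (adjusted p = 0.000781, limma). In Ago1-IP it had 74, 109 and 63 steps in dora libraries and 5, 2 and 4 in WT libraries, and the difference of the changes was −1.74 (adjusted p = 0.610). cisNAT+304, a plus-strand row where zfh2 and Tdg meet (4:538331-540874), had 4, 47 and 21 steps in treated dora libraries and 31, 28 and 54 in treated WT libraries, but 32, 53 and 22 in Ago1-IP dora libraries and 8, 4 and 7 in Ago1-IP WT libraries. Its difference, −3.41, had an adjusted p of 0.0768, and the row was named after its values were seen. The last, cisNAT+370, also named after its values were seen, had 4, 11 and 13 steps in treated dora libraries and 10, 9 and 23 in treated WT libraries, but 34, 45 and 29 in Ago1-IP dora libraries and 9, 12 and 9 in Ago1-IP WT libraries (difference −2.21, adjusted p = 0.323).

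The most abundant cis-NATs gave no common direction. The overlap of AGO2, the gene of the Argonaute that holds these siRNAs, with CG7739 gave 421, 989 and 632 steps on its plus row (cisNAT+885) in dora libraries and 459, 487 and 880 in WT libraries, and 357, 925 and 624 on its minus row (cisNAT-885) in dora libraries and 422, 409 and 779 in WT libraries. The groups overlapped, at log2 fold changes of 0.04 and 0.11. cisNAT+1539 had 54, 651 and 887 steps in dora libraries and 949, 773 and 683 in WT libraries. The only plus-strand annotation in this plus row is the snoRNA Or-aca4, and whether its signal is siRNA was not tested. The merged row overlap+287 at Ugt50B3 had 3, 473 and 771 in dora libraries and 699, 619 and 723 in WT libraries. In both, dora 1 was the lowest library by far and the log2 fold changes were −1.43 for cisNAT+1539 and −2.82 for overlap+287.

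Where a cis-NAT had enough signal on both rows in every library, the strands gave like amounts. Over the 150 pairs with at least 10 steps on both rows, the median ratio of the plus to the minus row was 1, 1.02 and 1.00 in dora libraries and 0.941, 0.961 and 1.00 in WT libraries. It lay within 2-fold for 140, 140 and 142 pairs in dora libraries and 141, 138 and 144 pairs in WT libraries. The strand balance of these pairs was thus alike in both genotypes, and dora 1 did not stand apart in it. Pairs with little or no signal on 1 row fall below the limit of 10 steps, so this is not the balance of all cis-NATs.

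Besides overlap-194, the loci with the smallest unadjusted p were all at an adjusted p of 0.471. A fragment of jockey, a non-LTR retrotransposon, at 2L:22278132-22278328 (FBti0060175+) had 85, 173 and 62 steps in dora libraries and 18, 19 and 56 in WT libraries (log2 fold change 1.76), and the nearby FBti0060174- had 95, 168 and 49 in dora libraries and 16, 23 and 53 in WT libraries (1.68). Where at least 10 steps were required in every library, both were called at the same folds (limma, adjusted p = 0.0294 for FBti0060175+ and 0.0338 for FBti0060174-), as was FBti0064236- (log2 fold change 1.80, adjusted p = 0.0330). cisNAT-1175 and cisNAT-1573 were higher in every dora library, with 36, 94 and 37 steps in dora libraries against 13, 9 and 28 in WT libraries and with 19, 37 and 49 in dora libraries against 8, 5 and 18 in WT libraries. Downwards came cisNAT+180, cisNAT+969, cisNAT-798, cisNAT-785 and cisNAT-1369, at log2 fold changes of −2.64 to −2.03 but with 1 to 4 steps in dora libraries and 3 to 17 in WT libraries. At such levels 1 step is a large part of the fold.

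Among transposable elements the largest signal came from 1731, an LTR retrotransposon. Most of it was assigned to 1 insertion (FBti0060280), although copies of a repeat cannot be told apart by shared reads. Its plus row had 1835, 3367 and 1890.0 steps in dora libraries against 1106, 1433 and 1407 in WT libraries. Its minus row had 1494, 2159 and 1209 in dora libraries against 669, 844 and 1020.0 in WT libraries. On both rows all dora libraries were above all WT libraries, and neither passed the test (log2 fold changes 0.70, SE 0.44, adjusted p = 0.751, and 0.82, adjusted p = 0.641, limma). The plus row holds RNA opposite to the element's own strand, and over the family 55.0% to 62.1% of the signal was of that strand.

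Summed by family over insertions, 5 of the 80 families above 0 in all libraries were higher in every dora library than in any WT library (1731, jockey, HMS-Beagle2, G and TART-B) and 5 were lower (HB, flea, R1A1, Stalker4 and BS3). The median ratio of means, dora over WT, was 1.05. The family 1731 stood at 455625, 559537 and 322301 in deposited units in dora libraries, against 216280, 309022 and 264623 in WT libraries, a ratio of 1.69. HMS-Beagle2 stood at 24452, 33207 and 18489 in dora libraries, against 13518, 13866 and 11657 in WT libraries, a ratio of 1.95.

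Other families followed single libraries. INE-1, with 2138 insertions, stood at 525993, 225370 and 127001 in dora libraries, against 154674, 172736 and 179419 in WT libraries, and roo at 326437, 68608 and 85779 in dora libraries, against 56821, 75539 and 101950 in WT libraries. In both the highest library was dora 1. The other dora libraries lay on either side of the WT range for INE-1 and within it for roo. For roo, 92.0% to 99.5% of the signal was opposite to the element's own strand, whereas for 1731 the strands were closer to even. Most of the roo signal was assigned to 1 row of its 117 insertions, FBti0019450+. That row had 2377, 575 and 761 steps in dora libraries, of 2403, 688 and 849 for the family, and 423, 492 and 824 in WT libraries, of 475, 572 and 962. The strand bias and the high dora 1 value of roo are thus largely those of this row, but which copies the reads came from cannot be told. The family sums were not tested, and the families were chosen after their values were seen.

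**Figure D5:**
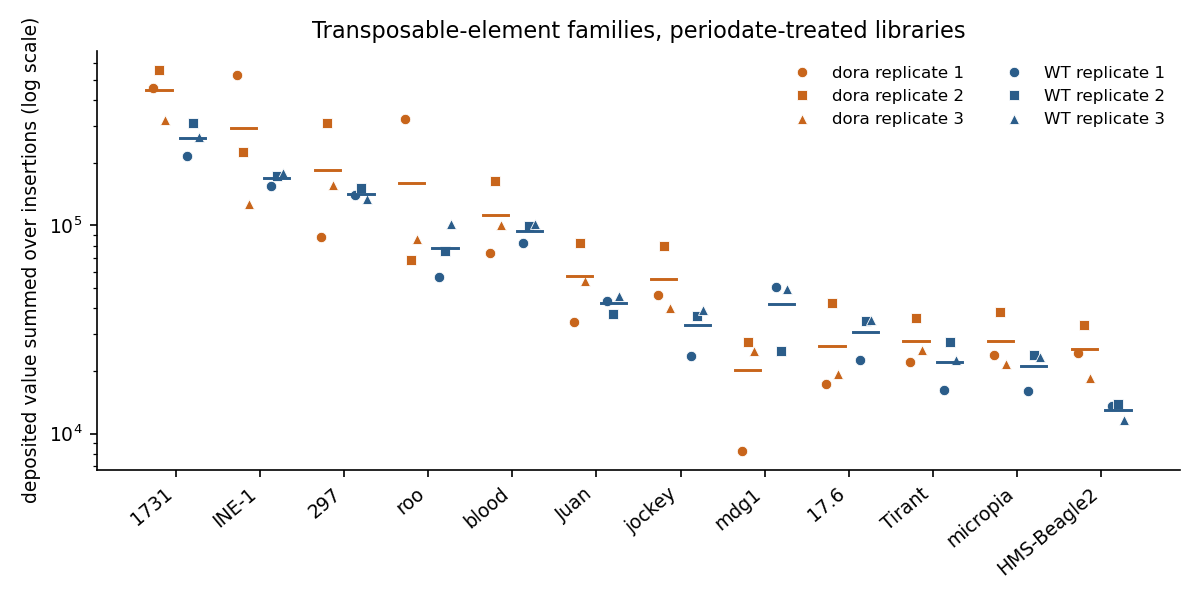
Deposited locus value summed over the insertions of 12 transposable-element families (log axis), 1 point per treated library with a bar at the mean, dora left of WT. 1731 is apart, at 322301 to 559537 in dora libraries and 216280 to 309022 in WT libraries, while the highest points of roo and INE-1 are both dora 1.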

How the data were processed

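Small RNA of 3 dora and 3 WT clonal lines was analysed after periodate treatment, with Ago1-IP, Ago2-IP and total libraries for comparison. The authors trimmed adapters (fastx_trimmer, cutadapt), kept reads of quality 30 or more (fastq_quality_filter) and matched the first 19 nt to a miRNA list, and deposited the resulting read counts of each miRNA. For loci they aligned reads to dm6 with STAR 2.4 (up to 50 places per read) and summed them with Cufflinks/CuffDiff 2.2.1 without length correction. The deposited locus signal is scaled to mapped reads, so that each value is a whole multiple of a library's step (100% of values, tolerance 0.02 steps). As shared reads are split between places, copies of a repeat cannot be told apart. Count tests of loci had been planned as an alternative and were not run.

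miRNAs with a mean above 5 RPM in WT and a coefficient of variation within 1.5 interquartile ranges of the others were tested with edgeR 4.0.16 (TMM, quasi-likelihood). Loci were kept where all libraries were above 0 and the coefficient was under 1, and were tested with limma 3.58.1 on log2(value + 1), in R 4.3.3. Fold changes of loci are on that scale. Differences between kinds of library were tested as interaction terms. For single values an exact permutation test was used, two-sided. The Benjamini-Hochberg adjustment was taken over all features tested, at a threshold of 0.05. DESeq2 1.42.0, other library sizes, filters and pseudocounts, each library left out and a replicate block were alternatives, and the steps were tested on simulated data.

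Members and lists were chosen with earlier results of these data known. Named were the Dora-sensitive miRNAs and partners, the 10 most abundant miRNAs and loci, those past the threshold or else the 5 of each direction with the smallest p, list members, and up to 3 further features per interaction test and direction. Coordinates and sequences come from RefSeq annotation of Release 6 (294 of 310 miRNA names matched). Ago2-IP columns were matched to their genotype only, since the headers do not name a single sample. The sign of a cis-NAT row is the genome strand. A plus row of a transposable element is opposite to the element's own strand, in all 1164 rows checked on 2L.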

Additional observations from a re-analysis of the deposited data

Results flagged for a closer look

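The change upon loss of Dora differed between periodate-resistant and Ago1-bound RNA for 15 miRNAs, by the interaction test of edgeR. The differences, treated minus Ago1-IP on the log2 scale, were −4.91 for miR-12-5p, −4.54 for miR-190-5p, −3.85 for miR-9c-5p, −3.61 for miR-7-5p, −2.96 for miR-999-3p, −3.39 for miR-996-3p, −2.63 for miR-277-3p, −2.38 for miR-9b-5p and −1.98 for miR-279-3p, all Dora-sensitive. Outside that list they were −3.29 for miR-9388-5p, −1.34 for miR-275-5p, −1.15 for miR-33-5p and −0.71 for miR-305-5p, with 0.90 for miR-965-5p and 0.87 for miR-2a-1-5p in the other direction.

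In rows left out of the main comparisons, dora 1 held 57.0% of its counted reads as size markers, and cisNAT-1355 held 15.0% of its locus signal, both far above the level in every other treated library. The part of these rows in the wider spread of the dora libraries was not tested.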

How the results depend on the processing

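The count of miRNAs lower in dora (2) was 0 with all miRNA reads as the library size, 0 with the Ago2-enriched cohort, 0 without the filter on variation and 4 with miRNAs at 0 in every library of a genotype kept, an alternative chosen after seeing the data. The count higher (0) was 1 by DESeq2, 2 without the filter on low counts, 1 with the mean over all 6 libraries above 5 RPM and 1 with those zeros kept. Leaving out 1 library gave 0 to 4 lower and 0 to 3 higher. At loci, 4 were higher (0) with at least 10 steps in every library, and leaving out 1 library gave 0 to 25 higher and 0 to 14 lower.

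Against Ago1-IP, the count of miRNAs with a positive difference (2) was 34 with TMM over both kinds of library, 1 without the filter on variation, 1 without that on low counts, and 0 to 5 with 1 library left out. Among loci, 1 was lower (0) with the total over loci as the library size, and 0 to 1 with 1 library left out. Line numbers did not pair dora with WT samples: deviations of same-numbered miRNA libraries correlated at 0.0494, 0.036 and 0.444. A replicate block joined dora and WT lines of the same number, which are different clones. With it, 1 miRNA was higher in treated libraries, 5 miRNAs had a positive difference from Ago1-IP and 2 loci a negative one. No block was fitted against Ago2-IP, whose columns were matched to a genotype but not to single lines.

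The signal per miRNA read differed by −0.0491 with the cohort as denominator (0.0178). The hairpin share (0.538 percentage points) differed by −1.23 with cisNAT-1355 kept and by −4.67 to 4.86 with 1 library left out, the merged share (−0.376) by 0.158 with overlap-3 counted there, a choice made after seeing the data, and by −0.823 to 0.397, and the other class by −0.000256 to 0.0270.

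Changes near 0 changed sign. With all miRNA reads, no filter on variation and no filter on low counts, miR-996-3p was at 0.0519, 0.0948 and 0.0610 and miR-999-3p at 0.0521, 0.0803 and 0.0522, and with 1 library left out they ran from −0.21 to 0.22 and from −0.11 to 0.14. miR-277-3p was at 0.00516 without the filter on variation. With the cohort as library size miR-190-5p was at −0.0130, overlap-3 at −0.0939 and CG4068 at −0.0114. overlap-3 was at −0.0037 with the total over loci and −0.0789 to 0.38 with 1 library left out, and CG4068 ran from −0.10 to 0.62. Against Ago2-IP, miR-996-3p was at −0.0171 with TMM over both kinds, and miR-190-5p at 0.00656 with all miRNA reads and 0.0354 without the filter on low counts. With 1 library left out these ran from −0.11 to 0.31 and −0.0665 to 0.18, miR-7-5p from −0.91 to 0.0273 and miR-999-3p from −0.22 to 0.0748.

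Of all values of single miRNAs and loci under the alternatives, 532 kept their direction and their side of the threshold, 15 passed it where the reported value did not, 13 no longer passed it and 38 changed sign. The causes of these shifts were not tested. Intervals rest on 3 lines per group only, and those of loci also on a trend of the spread over all loci tested. For the low cis-NAT rows, with 1 to 17 steps, the counts limit the precision. edgeR and DESeq2 on locus counts were not run, since the deposited values are scaled.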
